A study of Rattus norvegicus with 9 samples.

Results

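Cdk1, Pcna, Ccnd1 and Myc, 4 genes of the cell cycle and of cell growth, were followed in rat PC12 cells through oxygen-glucose deprivation and reperfusion (OGD/R) and with a microRNA mimic. They were taken by the identifiers ENSRNOG00000000632 (Cdk1), ENSRNOG00000021264 (Pcna), ENSRNOG00000020918 (Ccnd1) and ENSRNOG00000004500 (Myc), which makes 4 of the 23426 features listed in every library, and all 4 were above 0 in all 9 libraries. The choice was by name and uses no threshold on a value, but it was made with earlier results of these data known. The files give no gene symbols, and the RefSeq table of genes shared 0 identifiers with them, so the symbols rest on the list of members and were not checked against an annotation.

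PC12 is an established line derived from a rat pheochromocytoma, a tumour of adrenal chromaffin cells, and the labels describe the cells of all groups as differentiated. There were 3 groups of 3 libraries: controls, OGD/R alone, and OGD/R in cells that had first been transfected with miR-483-5p mimics. Deprivation was 4 h in medium without glucose at 1% oxygen, normal medium and oxygen were then restored for 6 h, and the mimics were given 48 h before deprivation. In the labels, transfection is named for no group but the mimic one. A negative-control mimic was among the oligonucleotides of the study, but whether the OGD/R libraries received it is not given in the sources used here, so the mimic itself and the transfection cannot be told apart. Nothing says whether the libraries of a group came from separate cultures, so p-values measure the spread between these libraries, which may be technical. All cells share 1 line, and the chromaffin markers that would check its identity were not analysed here, because no symbols are paired with the identifiers.

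The rat microRNA of the same name as the mimic is shown because the mimic is the agent that sets its libraries apart. The sources used here do not give the sequence or the species of the mimic itself. MicroRNAs pair with messenger RNAs mainly through their seed, which is written in capitals here (bases 2 to 8 from the 5′ end). The sequence is that of RefSeq (GRCr8, minus strand, chr1:207247903-207247924).
rno-miR-483-5p: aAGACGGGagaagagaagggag

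The cell cycle is driven by kinases that act only when bound to a cyclin. Ccnd1 encodes cyclin D1, which rises with growth signals and starts the passage through G1 together with Cdk4 or Cdk6. Myc encodes a transcription factor that promotes growth and entry into the cycle, and its messenger RNA is short-lived. Pcna encodes the sliding clamp that holds DNA polymerases on the template in S phase and also serves DNA repair, and Cdk1 encodes the kinase that, with cyclin B, brings cells into mitosis. Differentiated PC12 cells are known to leave the cycle for the most part. Whether the cells here had done so was not tested. In the control libraries Cdk1 lay at percentile 96.8 to 97.0 of features above 0, and Pcna and Ccnd1 lay higher.

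Promoters are shown for Cdk1 and Pcna because, among the genes followed, only these had a promoter entry. They are given as the 250 bases before the annotated start (RefSeq, GRCr8), and Ccnd1 and Myc had no entry. Capitals mark matches on either strand to any of 7 motifs: the CCAAT box bound by NF-Y, the E-box CACGTG bound by Myc with Max, the cyclic AMP element TGACGTCA, the element TTTGAA found in promoters of mitotic genes and known as the core of CHR, the E2F motifs TTTCCCGC and TTTGGCGC, and the Sp1 motif GGGCGG. A match on the opposite strand appears as its reverse complement, ATTGG for the CCAAT box.
Cdk1, chr20:19265043-19265292, plus strand: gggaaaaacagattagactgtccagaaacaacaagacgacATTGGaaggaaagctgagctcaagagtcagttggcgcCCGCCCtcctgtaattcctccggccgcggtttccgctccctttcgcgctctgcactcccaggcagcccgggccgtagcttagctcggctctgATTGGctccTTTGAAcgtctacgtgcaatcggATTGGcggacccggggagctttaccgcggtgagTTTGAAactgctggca
Pcna, chr3:139955821-139956070, minus strand: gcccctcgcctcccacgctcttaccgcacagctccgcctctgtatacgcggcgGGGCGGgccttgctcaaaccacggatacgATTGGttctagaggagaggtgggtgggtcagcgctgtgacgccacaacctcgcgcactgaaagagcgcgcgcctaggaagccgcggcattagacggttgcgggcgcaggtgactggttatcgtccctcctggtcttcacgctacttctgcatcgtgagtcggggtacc

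The Cdk1 window held 3 matches to CCAAT and 2 to TTTGAA. The TTTGAA matches began 72 and 16 bases before the start. The Pcna window held 1 match to CCAAT and 0 to TTTGAA, and each window held 1 match to GGGCGG. All 4 matches to CCAAT lay on the opposite strand, and no match overlapped another. Among the 33469 promoters of the same length in the table, 34% held CCAAT, 16.2% held TTTGAA and 30.5% held GGGCGG. The E-box, found in 5.59% of all promoters, the cyclic AMP element, found in 1.59%, and the E2F motifs TTTCCCGC and TTTGGCGC, found in 0.813% and 0.412%, had 0 matches in both windows. A match describes the letters only and says nothing of a bound factor.

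Levels are given in FPKM, fragments per kilobase of transcript scaled to the reads of the library, which can be set beside each other between genes because they are per length. Total depth is unknown from these values. A control library held 15792 to 16017 features above 0, an OGD/R library 16506 to 17149 and a mimic library 16820 to 17242. Over the 11798 features averaging 1 FPKM or more, OGD/R replicate 3 correlated at 0.984 with each of mimic replicates 1 and 2, against 0.978 and 0.968 with OGD/R replicates 1 and 2. Mimic replicate 3 correlated at 0.985 and 0.982 with OGD/R replicates 1 and 2, and at 0.982 and 0.981 with the other mimic libraries. These 2 libraries therefore lay partly with the other group, and differences between mimics and OGD/R are given below with and without them. Their labels were kept, and whether the 2 had been exchanged was not tested. The correlations run across genes, which are no independent replicates, and only describe the libraries.

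In control cells the order of the levels was Ccnd1, Pcna, Cdk1 and Myc in all 3 libraries. Ccnd1 had a mean of 612 ± 4.57 FPKM (SD, n = 3), Pcna 309 ± 7.65 FPKM, Cdk1 213 ± 8.65 FPKM and Myc 22.8 ± 1.16 FPKM. None of the neighbours in that order overlapped. The messenger RNA of the mitotic kinase ranked 480 to 520 from the top among the features of a control library, while Myc ranked 4633 to 4858.

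**Figure D1:**
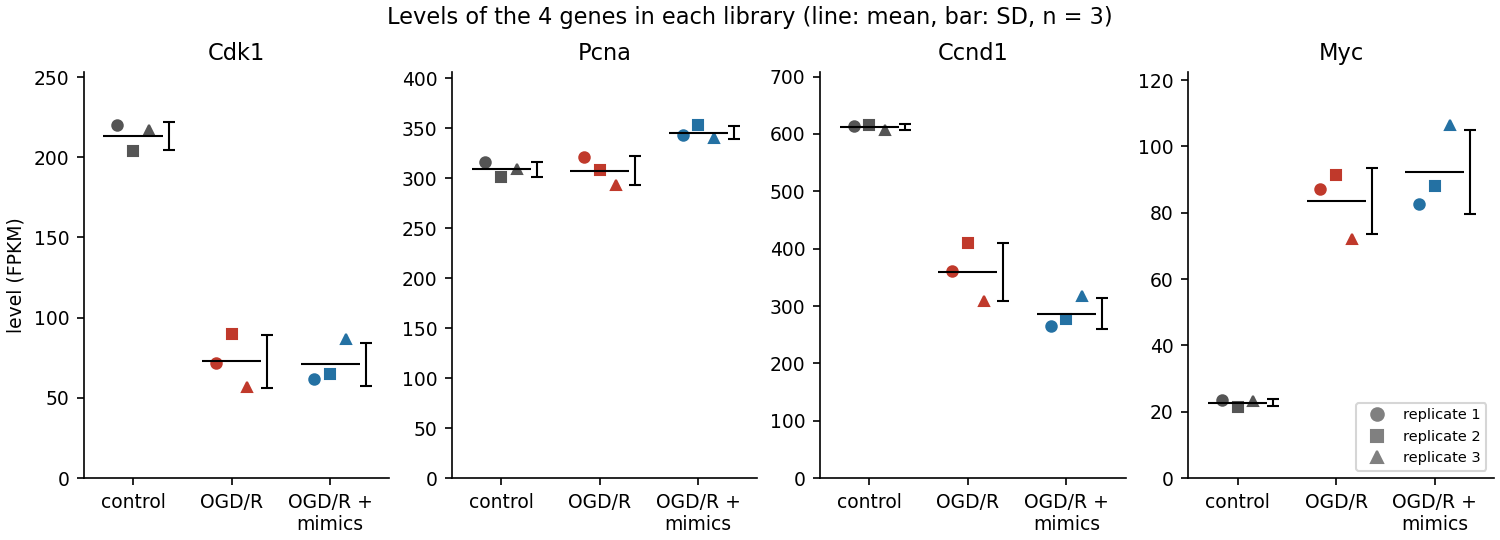
Level in FPKM (vertical axes, from 0) of Cdk1, Pcna, Ccnd1 and Myc in each of the 9 libraries, by group; symbols give the replicate number, lines the mean and bars the SD of 3 libraries. Cdk1 and Ccnd1 were lower and Myc higher in all 6 OGD/R and mimic libraries than in the controls, and Pcna ranged from 293.02 to 321.49 FPKM after OGD/R against 301 to 316.27 FPKM in the controls.

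The first question was how OGD/R moved these genes against control. They did not move together: Myc rose 3.64-fold, Cdk1 fell 2.98-fold, Ccnd1 fell 1.71-fold, and Pcna did not pass the threshold. With limma on log2(FPKM + 0.1), fitted over all 19394 features above 0 in at least 1 library, 3 of the 4 genes had an adjusted p under 0.05, where 46% of all features did. Of these, 1 was higher, against 16.1% of all features, and 2 were lower, against 29.8%. The control and OGD/R libraries did not overlap for 3 of the 4, against 71.5% of features averaging 1 FPKM or more. With 4 genes, these counts describe the members and set nothing apart from the other features. In bulk RNA, fewer cells with a transcript and less of it per cell cannot be told apart.

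Control libraries 1 to 3 held Myc at 23.66, 21.47 and 23.21 FPKM, and it was at 87.19, 91.25 and 72.18 FPKM after OGD/R. Every OGD/R library lay above every control, and OGD/R replicate 3 was the lowest of them. The log2 fold change was 1.86 (standard error 0.11, 95% interval 1.61 to 2.12, adjusted p = 7.09e-06 from limma). This transcription factor of growth moved from percentile 69.6 to 71.1 of the features above 0 in the control libraries to percentile 91.4 to 92.8 after OGD/R. Its fold change lay at percentile 97.6 among all features tested.

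In the controls Ccnd1 was at 613.82, 615.29 and 606.74 FPKM, and it was at 361.78, 409.63 and 308.82 FPKM after OGD/R. The control libraries lay close together, with a coefficient of variation of 0.747%, and every OGD/R library was below them, again with replicate 3 the lowest. The log2 fold change of the G1 cyclin was -0.77 (standard error 0.10, 95% interval -1.01 to -0.54, adjusted p = 0.000341 from limma), at percentile 17.0 of all features tested. Ccnd1 nonetheless stayed the highest of the 4 genes in each OGD/R library.

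For Pcna the controls read 316.27, 301 and 309.32 FPKM, and the gene was at 321.49, 308.17 and 293.02 FPKM after OGD/R. The ranges overlapped, with OGD/R replicate 1 above and replicate 3 below all controls. The log2 fold change of the replication clamp was -0.01 (standard error 0.05, 95% interval -0.12 to 0.11, adjusted p = 0.953 from limma). Its residual SD over the 9 libraries, 0.047 on the log2 scale, was lower than that of all but 2.42% of the 11798 features averaging 1 FPKM or more. The direction depended on the scaling: the log2 fold change was 0.02 with all libraries brought to the same sum of FPKM, and 0.24 after upper-quartile scaling, where it passed the threshold (adjusted p = 0.0139 from limma).

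Control libraries held Cdk1 at 219.98, 203.63 and 216.69 FPKM, and it was at 71.97, 89.87 and 56.51 FPKM after OGD/R. Every OGD/R library lay below every control, and the control mean was 2.93 times the OGD/R mean. The log2 fold change of the mitotic kinase was -1.58 (standard error 0.17, 95% interval -1.96 to -1.19, adjusted p = 0.000108 from limma), at percentile 3.03 of all features tested. The libraries were also further apart after OGD/R: the coefficient of variation was 4.05% in the controls and 22.9% after OGD/R.

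**Figure D2:**
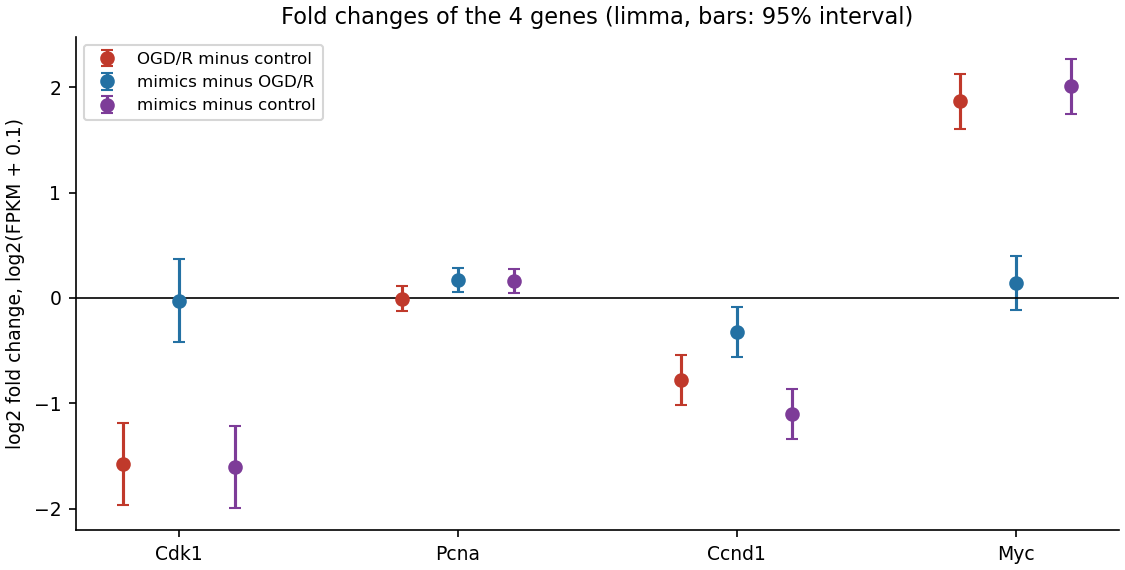
Log2 fold change on the log2(FPKM + 0.1) scale (vertical axis) of the 4 genes in 3 comparisons, with 95% intervals from limma. The 4 values of OGD/R minus control run from -1.58 (Cdk1) to 1.86 (Myc), and those of mimics minus OGD/R from -0.32 (Ccnd1) to 0.17 (Pcna).

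Most features past the threshold were lower after OGD/R as the values were deposited, so each change also has to be read against that shift. Of the features past the threshold 35.1% were higher after OGD/R; quantile normalization made this 45.2%, and upper-quartile scaling 53.4%. Among features averaging 1 FPKM or more, the log2 fold change had a median of -0.23 as deposited, of -0.06 with quantile normalization and of 0.01 with upper-quartile scaling. Relative to the deposited median, Cdk1 differed by -1.34, Ccnd1 by -0.54, Pcna by 0.23 and Myc by 2.10. The directions of Cdk1, Ccnd1 and Myc and their adjusted p under 0.05 held under each of 20 alternatives: Cdk1 ranged from -1.74 to -1.33, Ccnd1 from -0.87 to -0.53 and Myc from 1.80 to 2.11. The study's cut-offs are a log2 ratio of 1 or more in either direction and an unadjusted p under 0.05, which it applied to edgeR results. With the p-values of limma in their place, these cut-offs were met by Cdk1 and Myc, 2 of the 4 genes, and by 18% of all features.

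**Figure D3:**
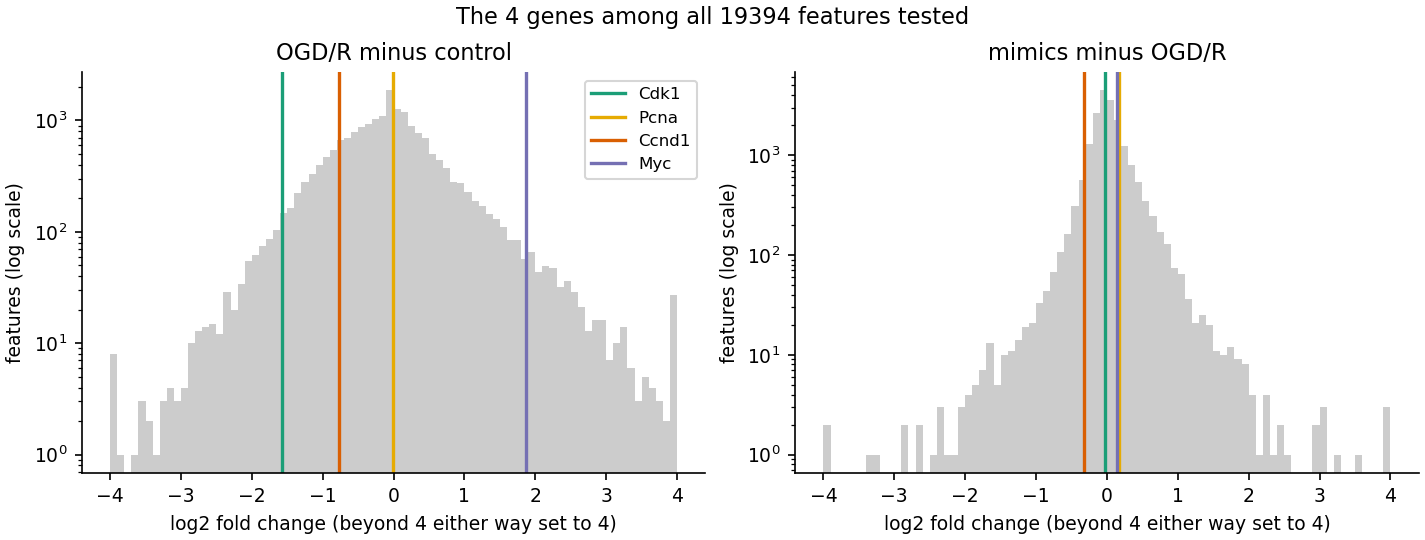
Histograms of the log2 fold change of all 19394 features tested (horizontal axes; vertical axes count features on a log scale), with the 4 genes as lines, for OGD/R minus control and mimics minus OGD/R. After OGD/R, Cdk1 and Myc lie towards opposite ends, at percentiles 3.03 and 97.6. Between mimics and OGD/R the 4 genes lie at percentiles 6.34 (Ccnd1) to 77.5 (Pcna).

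Whether the 4 genes differed from each other in their change was asked with the ratio of each pair within a library, which a common factor for a library, such as its depth, cannot alter. All 6 pairs parted control from OGD/R without overlap, and each had p = 0.1 by an exact two-sided permutation test, the smallest that 3 libraries against 3 allow (adjusted over the 6 pairs, p = 0.1). This test therefore cannot give a p under 0.05 here. The 6 ratios come from 4 genes and are not independent of each other. How often pairs of other features part in this way was not computed. Among single features averaging 1 FPKM or more, 71.5% did not overlap. Cdk1 stood at 9.26 to 9.45 times Myc in the control libraries and at 0.783 to 0.985 times Myc after OGD/R. This was a mean change of -3.44 on the log2 scale. The SD of this log2 ratio was 0.015 among controls and 0.17 among OGD/R libraries. Cdk1 was also lower against Ccnd1, the other gene that fell: the ratio went from 0.331 to 0.358 in the controls to 0.183 to 0.220 after OGD/R, a mean change of -0.80 on the log2 scale. Against Pcna, the mean log2 ratio changed by -1.57 for Cdk1, and Pcna changed by 0.77 against Ccnd1 and by -1.87 against Myc. Ccnd1 went from 25.8 to 28.5 times Myc in the controls to 4.15 to 4.49 times Myc after OGD/R, a mean change of -2.64 on the log2 scale. With these changes the order of the levels became Ccnd1, Pcna, Myc and Cdk1 in all 3 OGD/R libraries. Across OGD/R libraries the ranges of Cdk1 and Myc overlapped, as did those of Pcna and Ccnd1, although the order held within each library.

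**Figure D4:**
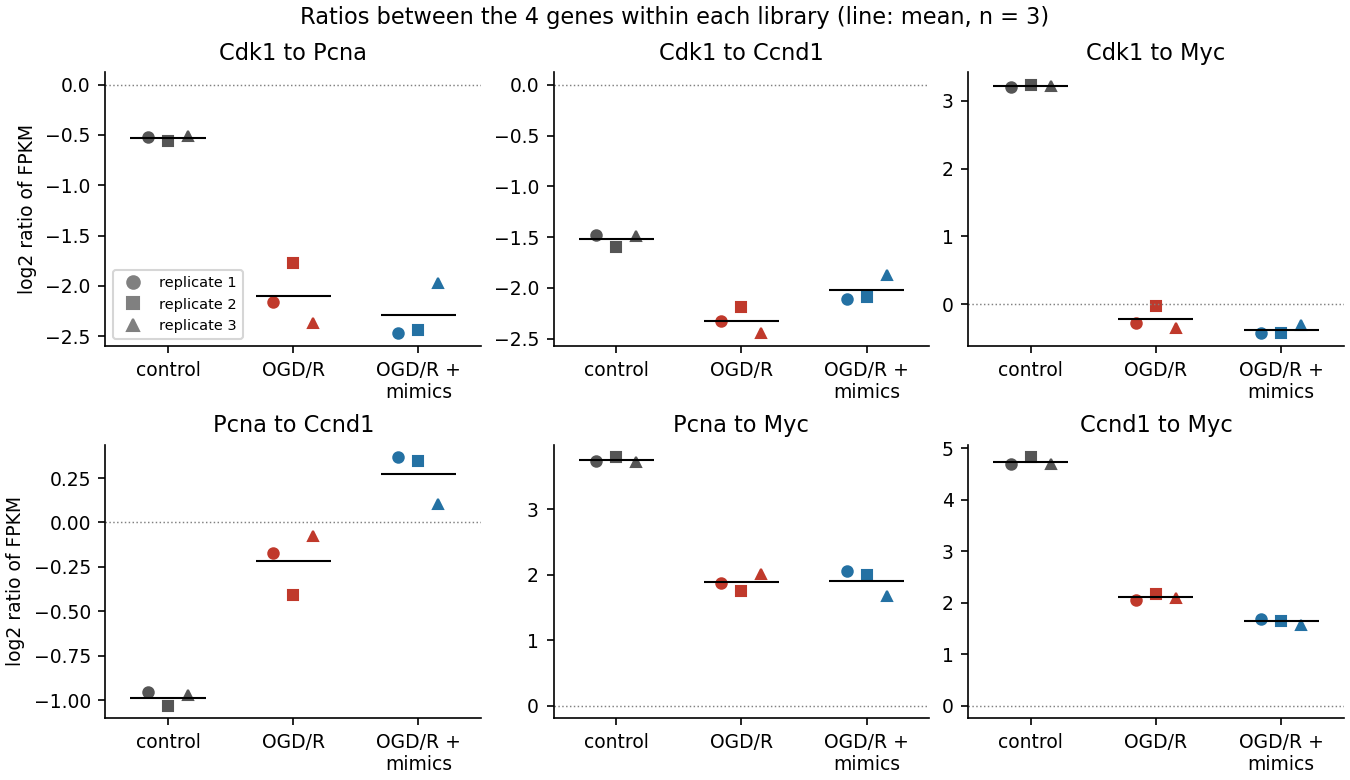
Log2 ratio of FPKM within each library (vertical axes) for the 6 pairs of genes, by group; symbols give the replicate number and lines the mean of 3 libraries. Each pair separates the controls from the OGD/R libraries, and Ccnd1 to Myc, Pcna to Ccnd1 and Cdk1 to Ccnd1 also separate the OGD/R from the mimic libraries.

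The second question was whether miR-483-5p mimics changed these genes after OGD/R. By limma, 0 of the 4 had an adjusted p under 0.05, as had 0% of all 19394 features, while an unadjusted p under 0.05 was reached by 2 of the 4 and by 1333 features. The study's cut-offs, again with limma, were met by 0 of the 4, against 0.82% of features. The libraries of both groups did not overlap for 1 of the 4, Pcna, against 9.94% of features averaging 1 FPKM or more.

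Myc was at 82.51, 88 and 106.41 FPKM with mimics, so the values overlapped those after OGD/R, with mimic replicate 3 the highest of all. Its log2 fold change was 0.14 (standard error 0.11, 95% interval -0.12 to 0.40, adjusted p = 0.821 from limma). The value was 0.036 without mimic replicate 3, 0.041 without OGD/R replicate 3 and 0.22 without mimic replicate 1. Leaving out replicate 3 of both groups gave -0.066 (adjusted p = 0.589 from limma).

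Ccnd1 was at 265.73, 277.49 and 317.19 FPKM with mimics. Mimic replicates 1 and 2 lay below every OGD/R library, whereas mimic replicate 3 lay just above OGD/R replicate 3. The log2 fold change was -0.32 (standard error 0.10, 95% interval -0.56 to -0.09, unadjusted p = 0.0128, adjusted p = 0.625 from limma). At or below it lay 6.34% of all features tested and 3.82% of features averaging 1 FPKM or more. Without OGD/R replicate 3 and mimic replicate 3 the value was -0.50, with an adjusted p of 0.0296 from limma. These libraries were chosen because each resembled the other group. Leaving them out thus widens the gap between the groups as a whole by construction, though not for each gene. With them left out, 823 features passed the threshold where 0 did before.

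Pcna was at 343.12, 353.12 and 340.44 FPKM with mimics, above every OGD/R and control library. The mean was 346 ± 6.68 FPKM (SD, n = 3) against 308 ± 14.2 FPKM after OGD/R, and the log2 fold change was 0.17 (standard error 0.05, 95% interval 0.05 to 0.28, unadjusted p = 0.00941, adjusted p = 0.604 from limma). It kept its direction under each of the 20 alternatives, from 0.13 to 0.24, with an adjusted p from 0.150 to 0.936 by limma. Without replicate 3 of both groups it was 0.15 (adjusted p = 0.150 from limma).

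Cdk1 was at 61.68, 65.22 and 86.43 FPKM with mimics and within the 56.51 to 89.87 FPKM seen after OGD/R. By limma its log2 fold change was -0.02 with a standard error of 0.17 (adjusted p = 0.998), and the 95% interval, -0.41 to 0.36, was the widest of the 4 genes. Its direction turned with the scaling, to 0.05 after upper-quartile scaling, and with the library left out, from -0.19 to 0.14. Leaving out replicate 3 of both groups gave -0.34 (adjusted p = 0.112 from limma).

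**Figure D5:**
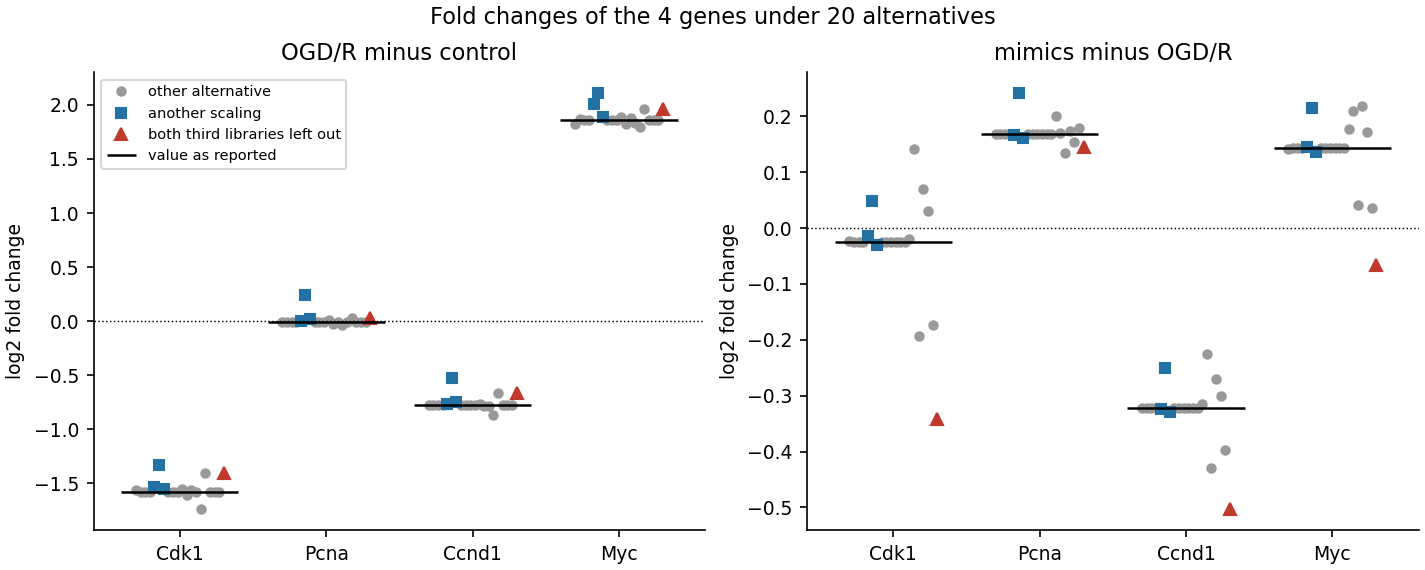
Log2 fold change (vertical axes, different ranges) of the 4 genes as reported (lines) and under 20 alternatives (points), for OGD/R minus control and mimics minus OGD/R; squares mark other scalings and triangles the fit without OGD/R replicate 3 and mimic replicate 3. For OGD/R minus control the points of Cdk1, Ccnd1 and Myc stay on 1 side of 0, and for mimics minus OGD/R those of Pcna and Ccnd1 do.

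Within libraries, the order of the levels changed once more with mimics, to Pcna, Ccnd1, Myc and Cdk1 in all 3 libraries. Pcna and Ccnd1 no longer overlapped, while the ranges of Myc and Cdk1 did. The comparison of ratios between mimics and OGD/R was made after that order had been seen. For Pcna against Ccnd1 the order alone fixed ratios without overlap, and with them the p-value given below. Pcna stood at 0.752 to 0.949 times Ccnd1 after OGD/R and at 1.07 to 1.29 times Ccnd1 with mimics, a mean change of 0.49 on the log2 scale. Ccnd1 stood at 4.15 to 4.49 times Myc after OGD/R and at 2.98 to 3.22 times Myc with mimics, a mean change of -0.47 on the log2 scale. The SD of this log2 ratio was 0.057 in the OGD/R libraries and 0.058 in the mimic libraries. Cdk1 differed by 0.30 against Ccnd1. These 3 pairs, all of which hold Ccnd1, had p = 0.1 by the exact permutation test (adjusted over the 6 pairs, p = 0.2), while the other 3 pairs had p from 0.2 to 0.9. Since the 3 share Ccnd1 they are not independent, and how often pairs of other features part was not computed. Without replicate 3 of both groups the change was 0.16 for Cdk1 against Ccnd1, 0.65 for Pcna against Ccnd1 and -0.44 for Ccnd1 against Myc. In the other pairs, Cdk1 differed by -0.19 against Pcna (-0.49 without those libraries) and by -0.17 against Myc (-0.28 without them), and Pcna differed by 0.03 against Myc (0.21 without them). With 1 library left out these ran from -0.35 (without mimic replicate 3) to -0.030 (without OGD/R replicate 2) for Cdk1 against Pcna, from -0.23 (without OGD/R replicate 3) to -0.069 (without OGD/R replicate 2) for Cdk1 against Myc, and from -0.045 (without mimic replicate 1) to 0.14 (without mimic replicate 3) for Pcna against Myc.

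The mimic libraries were also compared with control, using the same control libraries as for OGD/R. Cdk1 differed by -1.60 (adjusted p = 8.37e-05), Ccnd1 by -1.10 (adjusted p = 4.36e-05), Pcna by 0.16 (adjusted p = 0.0260) and Myc by 2.01 (adjusted p = 4.55e-06) on the log2 scale by limma. All 4 thus passed the threshold, as did 49.6% of all features. The call on Pcna was lost without control replicate 2 (0.14, adjusted p = 0.0794 from limma), control replicate 3 (0.16, adjusted p = 0.0724), mimic replicate 1 (0.17, adjusted p = 0.0539) or mimic replicate 2 (0.15, adjusted p = 0.0727), and also in a fit without the mean-variance trend (0.16, adjusted p = 0.0918). Over the 20 alternatives the value for Pcna ran from 0.14 to 0.48.

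The features whose pattern over the 9 libraries lay nearest to each gene were named by a fixed measure, the root mean square difference of log2 values after each feature's own mean was subtracted, among 11797 other features averaging 1 FPKM or more. Nearest to Cdk1 was ENSRNOG00000001457 (difference 0.045). It read 56.21, 56.38 and 54.12 FPKM in controls, was at 18.75, 24.21 and 14.42 FPKM with OGD/R, and stood at 16.38, 16.93 and 21.81 FPKM in the mimic libraries. Nearest to Pcna was ENSRNOG00000022741 (difference 0.047), which held between 62.75 and 69.73 FPKM in all libraries. The feature nearest to Ccnd1 (difference 0.049) was also lower after OGD/R and is not named, because at most 2 lower ones were printed. Nearest to Myc was ENSRNOG00000001414 (difference 0.077), which held 11.69 to 12.52 FPKM in controls, 41.8 to 48.26 FPKM with OGD/R and 47.3 to 56.8 FPKM in the mimic libraries. The symbols of these features are not given in the files. How common each pattern was differed widely: a difference under 0.2 was shared with Pcna by 22.9% of these features, with Ccnd1 by 12.1%, with Cdk1 by 2.98% and with Myc by 0.280%, or 33 features. Between the genes themselves, Cdk1 and Ccnd1 lay nearest to each other (0.34) and Cdk1 and Myc farthest apart (1.66).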

How the data were processed

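RNA-seq libraries of PC12 cells were grouped and numbered by the sample labels (3 groups of 3). The authors removed poly-N, adapter and low-quality reads, used RSEM to estimate the level of each gene, and the deposited unit is FPKM, with 2 decimals. The submitters' processing notes also name Bowtie2 2.3.3.1 and Cufflinks 2.2.1. The genome build and annotation are not given in the sources used here, and the labels name more than 1 library kit without saying which libraries each served. One culture detail is not reported here.

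FPKM are not counts, so limma 3.58.1 (R 4.3.3; lmFit, eBayes with a mean-variance trend) was run on log2(FPKM + 0.1) of 19394 features, with 9 libraries, 3 groups and 6 residual degrees of freedom. Fold changes on this scale understate the change of low features. P-values were two-sided and Benjamini-Hochberg adjusted over all features. The script was tested on simulated data. Ratios were tested with scipy 1.17.1. Named features were the 4 genes and the feature nearest to each in pattern, with at most 2 lower and 2 higher after OGD/R printed. Lists of cell cycle, Myc and chromaffin genes could not be counted, since 0 identifiers matched symbols. The members and lists were chosen with earlier results of these data known.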

Additional observations from a re-analysis of the deposited data

How the results depend on the processing

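Alternatives were pseudocounts of 1 and 0.01, filters on mean FPKM (0.1 and 1), 3 other scalings, no mean-variance trend, a fit on the compared groups alone, a replicate block, leaving out each library, and leaving out replicate 3 of OGD/R and of mimics together. The count of features past the threshold against control, 8913 for OGD/R and 9622 for mimics, stayed within 1.5 times of that under each of them. Between mimics and OGD/R the 0 features became 9 with a pseudocount of 0.01, 7 without the trend, 823 without both of those libraries, and 0 to 11 with 1 library left out. The causes were not tested.

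Pcna between OGD/R and control was -0.01 and became 0.24 with upper-quartile scaling, 0.019 with equal sums, 0.028 without both of those libraries, and -0.039 to 0.028 with 1 library left out. Between mimics and OGD/R, Cdk1 became 0.049 with upper-quartile scaling and -0.19 to 0.14 with 1 library left out. Without both of those libraries Myc became -0.066 and Ccnd1 -0.50. Between mimics and control, Pcna missed the threshold without the trend (0.16, adjusted p = 0.0918 from limma) and ran from 0.14 to 0.18 with 1 library left out. The ratio of Pcna to Myc between mimics and OGD/R (0.03) ran from -0.045 to 0.14 with 1 library left out and was 0.21 without both of those libraries.

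Replicate numbers did not pair the libraries: across features, deviations of same-numbered libraries from their group means correlated at -0.47 to 0.22, over 0.1 in 1 of 9 pairs. The replicate block gave 8147, 0 and 8915 features in the 3 comparisons and changed no call on the 4 genes. Depth is unknown, but the 4 genes lie well above the low values that it limits most.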
